A study of Drosophila melanogaster with 9 samples.

Results

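The genes described here are those that the KEGG annotation of the deposited table assigns to the proteasome, 46 of the 14409 genes in the table. They were measured by RNA sequencing of ring glands, the compound endocrine organ of Drosophila melanogaster larvae that makes ecdysone, juvenile hormone and adipokinetic hormone. The study compared 3 groups of 3 libraries: glands from starvation before the nutrient restriction checkpoint (called pre-NRC starvation), from starvation after that checkpoint (post-NRC starvation), and from feeding larvae. All groups were of the w1118 strain, and glands of many larvae were pooled for each library, which the design text calls a biological replicate. Only the feeding columns state a time, in hours from an unstated start. No source used here gives larval ages or lengths of starvation, so starvation and larval age cannot be told apart.

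The proteasome breaks down proteins that carry ubiquitin. Its core particle is a barrel of stacked rings: the outer alpha rings gate the entry, and the inner beta rings hold the cutting sites. A regulatory particle caps the barrel; its base holds ATPases that unfold the substrate and feed it into the core, and its lid removes the ubiquitin chain. Subunits of both particles are needed in fixed proportions, and in animals and yeast their genes are known to be regulated together.

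By role, the 46 members comprised 7 genes of the alpha ring, 7 of the beta ring, 5 base ATPases, 3 other base subunits, 7 lid subunits, 3 partner proteins and 14 paralogs of subunits, most of them known in the fly as copies used in the male germline. The first 5 classes, 14 core and 15 regulatory genes, are called the 29 subunits below. The 7 alpha ring genes include both Prosalpha1 and its nearly identical copy CG30382, which is not counted among the 14 paralogs, and they lack Prosalpha2. The filter on low counts was passed by 35 members; the other 11 were all paralogs. Members lay on every large chromosome arm, 9 on 2L, 13 on 2R, 7 on 3L, 11 on 3R and 6 on X. The canonical subunits without the annotation, which are no members, were Prosalpha2, Rpt2, Rpn7, Rpn13 and Sem1.

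Libraries held 29123939 to 36131089 counts over all genes, and 10883 genes were tested. In each group replicate 3 stood apart from replicates 1 and 2, and feeding replicates 1 and 2 were the most alike pair, with a chi-square of 78.5 per gene against 222 to 751 for the other pairs within a group. Markers of the ring gland were present in every library, with summed CPM (counts scaled by library size) of 16700 to 22000 in pre-NRC starvation, 22900 to 32200 in post-NRC starvation and 28200 to 39100 in feeding. Of these sums, Akh alone gave 8439 to 17480 CPM in pre-NRC starvation. It gave 4516 to 8972 CPM in post-NRC starvation and 1372 to 4680 CPM in feeding. Markers of other tissues were present too. In a bulk sample, fewer cells of a type and less RNA per cell cannot be told apart.

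In glands starved before the checkpoint, transcripts of nearly the whole proteasome were less abundant than in feeding glands. Of the 35 members tested, 28 were lower and 0 higher at an adjusted p under 0.05 (edgeR's quasi-likelihood test, Benjamini-Hochberg over all genes tested), against 11.5% of all genes called lower. The calls covered 14 of 14 core subunits, 13 of 15 regulatory subunits and the assembly factor Pomp. The median log2 change of the 29 subunits was −1.27, with −1.22 for the core and −1.28 for the regulatory particle, beside 0.00 over all genes tested. All 29 lay between −1.90 (CG30382) and −0.86 (Rpn10). For every one of the 29, the 3 pre-NRC starvation libraries were below the 3 feeding libraries; 32 of 35 members were so separated in either direction, 31 of them lower, beside 23.1% of all genes separated and lower.

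**Figure D1:**
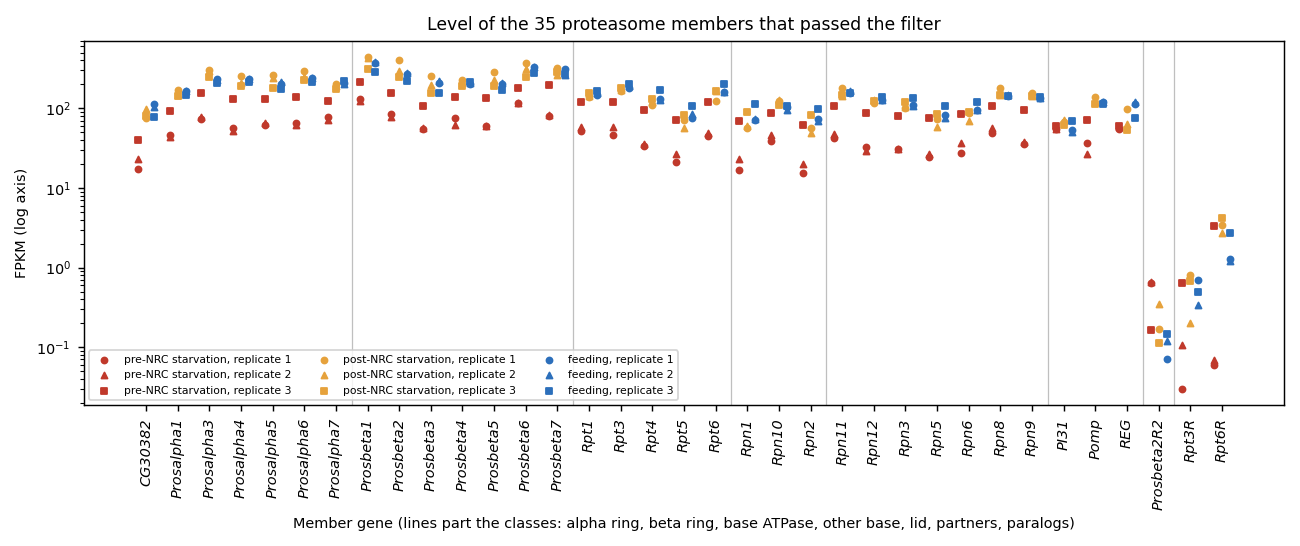
FPKM (fragments scaled by length and depth, log axis) of the 35 members that passed the filter, with 1 point per library and classes parted by vertical lines. Each of the 29 subunits has its lowest group mean in pre-NRC starvation, and the 3 paralogs at the right lie far below the subunits.

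Levels can be compared between genes only per length, so they are given here in FPKM. In feeding glands the 29 subunits ranged from 81.2 FPKM for Rpn2 to 345.2 FPKM for Prosbeta1. The alpha subunit Prosalpha2, which lacks the annotation, averaged 410.4 FPKM there. Among the 29, the 2 highest in feeding were beta ring genes. Prosbeta1 averaged 156.5 ± 52.4 FPKM in pre-NRC starvation, 393.0 ± 66.9 FPKM in post-NRC starvation and 345.2 ± 48.2 FPKM in feeding (SD, n = 3 each). Prosbeta6, a structural beta subunit, averaged 137.7 ± 35.03 FPKM in pre-NRC starvation, 309.9 ± 58.9 FPKM in post-NRC starvation and 313.8 ± 31.7 FPKM in feeding (SD, n = 3 each). In feeding these 2 neighbours in the order differed by less than the SD of Prosbeta1. At the low end, the base scaffold Rpn2 averaged 32.3 ± 25.4 FPKM in pre-NRC starvation, 62.8 ± 17.8 FPKM in post-NRC starvation and 81.2 ± 15.95 FPKM in feeding (SD, n = 3 each). The order of the subunits by mean FPKM was much alike in all groups. Spearman's rho across the 29 genes was 0.96 between pre-NRC starvation and feeding, 0.97 between post-NRC starvation and feeding, and 0.95 between post-NRC and pre-NRC starvation, a description across genes that share their libraries and lengths.

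Among the alpha ring genes, which form the gate and dock the regulatory particle, the 7 changes in pre-NRC starvation over feeding ran from −1.90 to −1.13 with adjusted p of 0.00437 to 0.0209. CG30382 (current symbol Prosalpha1R; chromosome arm 2R, 7830413 to 7831771) had 23.5, 25.4 and 42.9 CPM in pre-NRC starvation, 95.5, 128 and 85.3 CPM in post-NRC starvation, and 132, 122 and 87.7 CPM in feeding. The pre-NRC libraries were all below the libraries of both other groups, and the log2 change of −1.90 (SE 0.30, adjusted p = 0.00437) was the furthest from 0 among the subunits. CG30382 lies near Prosalpha1 (2R, 7827303 to 7828678) and is a nearly identical copy of it, so reads may have been split between them in the counting. Counted together, the 2 genes had 86.2, 77.7 and 146 CPM in pre-NRC starvation, 332, 324 and 241 CPM in post-NRC starvation, and 336, 323 and 256 CPM in feeding, with 27.3% to 39.5% of it assigned to CG30382. The sum was thus lower in every pre-NRC library than in any library of the other groups.

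Prosalpha7 had 111, 88.1 and 145 CPM in pre-NRC starvation, 262, 261 and 205 CPM in post-NRC starvation, and 255, 247 and 254 CPM in feeding. It had the smallest spread of the alpha genes in feeding, and its change of −1.14 (SE 0.22, adjusted p = 0.00867) was the only other one to pass a threshold of 0.01. Prosalpha3 had 101, 92.1 and 172 CPM in pre-NRC starvation, 393, 394 and 270 CPM in post-NRC starvation, and 284, 275 and 240 CPM in feeding, a change of −1.13 (SE 0.28, adjusted p = 0.0198) over feeding. Its post-NRC and feeding libraries overlapped, although 2 post-NRC libraries were above every feeding library. Prosalpha6 had 95.5, 79.0 and 161 CPM in pre-NRC starvation, 404, 354 and 263 CPM in post-NRC starvation, and 306, 306 and 262 CPM in feeding, with a change of −1.38 (SE 0.29, adjusted p = 0.0122). In all 4 genes pre-NRC replicate 3 was the highest of its group, and pre-NRC libraries still did not overlap with feeding libraries.

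Of the beta ring, the 7 changes ran from −1.44 to −1.14 with adjusted p of 0.0118 to 0.026. The ring holds 3 cutting subunits. Prosbeta1, the caspase-like one, had 156, 129 and 207 CPM in pre-NRC starvation, 496, 500 and 304 CPM in post-NRC starvation, and 394, 400 and 294 CPM in feeding, a change of −1.14 (SE 0.28, adjusted p = 0.0186). The trypsin-like Prosbeta2 changed by −1.28 (SE 0.31, adjusted p = 0.0191) and the chymotrypsin-like Prosbeta5 by −1.21 (SE 0.33, adjusted p = 0.026), so all 3 cutting subunits were called lower. The structural Prosbeta6 had 157, 137 and 189 CPM in pre-NRC starvation, 462, 405 and 267 CPM in post-NRC starvation, and 392.4, 391.2 and 311.4 CPM in feeding (−1.18, SE 0.25, adjusted p = 0.0118). Prosbeta7 had 137, 122 and 226 CPM in pre-NRC starvation, 434, 374 and 334 CPM in post-NRC starvation, and 399, 398 and 333 CPM in feeding (−1.22, SE 0.26, adjusted p = 0.0127). For both, the highest pre-NRC library was below the lowest library of either other group.

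**Figure D2:**
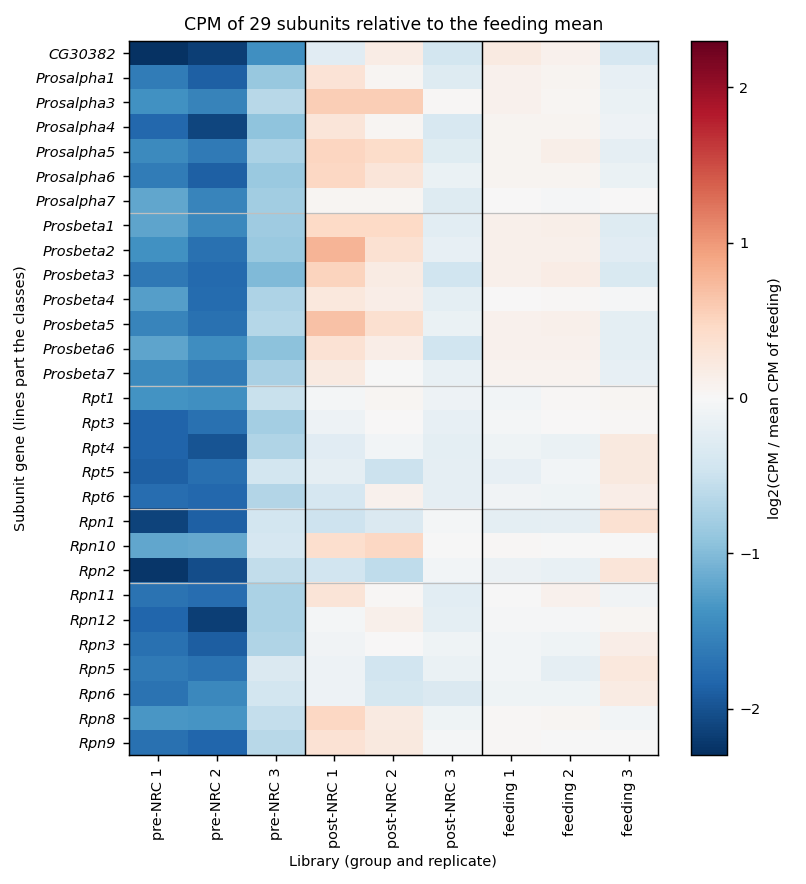
Colour shows log2 of CPM over the mean CPM of feeding for the 29 subunits (rows, classes parted by lines) in the 9 libraries (columns). The median of a pre-NRC column is −1.62, −1.73 or −0.71, with replicate 3 palest, while post-NRC columns have medians of 0.25, 0.10 and −0.20.

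The base of the regulatory particle showed changes of the same size. Its 5 annotated ATPases, which unfold substrates, changed by −1.39 to −1.04 in pre-NRC starvation over feeding, and 5 of 5 were called lower. Rpt3 had 93.1, 102 and 194 CPM in pre-NRC starvation, 310, 334 and 291 CPM in post-NRC starvation, and 324, 334 and 341 CPM in feeding (−1.36, SE 0.28, adjusted p = 0.0112). Rpt6 had 90.02, 85.98 and 188 CPM in pre-NRC starvation, 233, 324 and 262 CPM in post-NRC starvation, and 285, 283 and 338 CPM in feeding (−1.31, SE 0.32, adjusted p = 0.0191). Rpt3 was nearly level among the feeding libraries, and pre-NRC replicate 3 of both lay between the other pre-NRC libraries and feeding. Rpt4 had 70.5, 64.3 and 157 CPM in pre-NRC starvation, 212, 243 and 218 CPM in post-NRC starvation, and 238, 229 and 298 CPM in feeding (−1.39, SE 0.34, adjusted p = 0.0187).

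The other base subunits receive ubiquitin chains or carry those that do. Rpn10, a ubiquitin receptor, had 75.7, 77.1 and 133 CPM in pre-NRC starvation, 226, 240 and 173 CPM in post-NRC starvation, and 176, 172 and 172 CPM in feeding. Its change of −0.86 (SE 0.26, adjusted p = 0.0357) was the least among the 29 subunits. Rpn1, the docking site of shuttle factors, had 72.8, 87.4 and 237 CPM in pre-NRC starvation, 231, 252 and 308 CPM in post-NRC starvation, and 274, 276 and 408 CPM in feeding. The groups of Rpn1 did not overlap between pre-NRC starvation and feeding, but the spread within groups was wide and the change of −1.27 (SE 0.43, adjusted p = 0.056) did not pass. Rpn2, a scaffold of the base, had 72.1, 82.9 and 231 CPM in pre-NRC starvation, 252, 226 and 325 CPM in post-NRC starvation, and 309, 303 and 410 CPM in feeding (−1.41, SE 0.43, adjusted p = 0.0403). Rpn1 and Rpn2 are the longest subunit genes, and their replicate 3 was the highest library in every group.

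In the lid, 6 of 7 subunits were called lower, with changes of −1.43 to −1.03. Rpn11, the enzyme that cuts ubiquitin off the substrate, had 72.8, 70.1 and 143 CPM in pre-NRC starvation, 291, 239 and 199 CPM in post-NRC starvation, and 236, 251 and 223 CPM in feeding (−1.31, SE 0.30, adjusted p = 0.0155). Its partner Rpn8 had 101, 100.3 and 175 CPM in pre-NRC starvation, 354, 296 and 239 CPM in post-NRC starvation, and 261, 263 and 244 CPM in feeding (−1.03, SE 0.26, adjusted p = 0.0224). Both were separated from feeding in all pre-NRC libraries, and in both post-NRC replicate 1 was the highest library of all. The lid scaffold Rpn3 had 73.7, 65.1 and 151 CPM in pre-NRC starvation, 230, 242 and 227 CPM in post-NRC starvation, and 232, 226 and 269 CPM in feeding (−1.33, SE 0.31, adjusted p = 0.0165). Rpn5 was the lid subunit that did not pass (−1.07, SE 0.36, adjusted p = 0.0556).

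The 3 partner proteins did not share 1 pattern. Pomp, a chaperone that matures the core particle, had 56.3, 35.4 and 87.8 CPM in pre-NRC starvation, 202, 182 and 139 CPM in post-NRC starvation, and 163, 162 and 148 CPM in feeding. Pomp was called lower like the subunits (−1.40, SE 0.31, adjusted p = 0.0147), although its exons overlap 437 bases of the gene vari on the opposite strand. REG, the fly homologue of the nuclear activator PA28 gamma, had 107, 98.8 and 94.6 CPM in pre-NRC starvation, 178, 120 and 83.3 CPM in post-NRC starvation, and 198, 207 and 126 CPM in feeding. Pre-NRC libraries of REG were close together and below feeding, and the change of −0.82 (SE 0.30, adjusted p = 0.0707) did not pass. PI31, a proteasome-binding protein first described as an inhibitor (2R, 11967343 to 11970115), had 90.6, 78.9 and 77.7 CPM in pre-NRC starvation, 104, 115.4 and 80.7 CPM in post-NRC starvation, and 77.9, 73.1 and 95.8 CPM in feeding. Here the groups overlapped, and the change of 0.00 had a 95% interval of −0.45 to 0.45 (adjusted p = 0.993). The fitted change of no subunit among the 29 lay in that interval. The 95% intervals of some subunits did reach into it, such as those of Rpn5 (−1.89 to −0.25) and Rpn10 (−1.44 to −0.29). PI31 was singled out after its values were seen, and a test of PI31 against the subunits was not made.

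**Figure D3:**
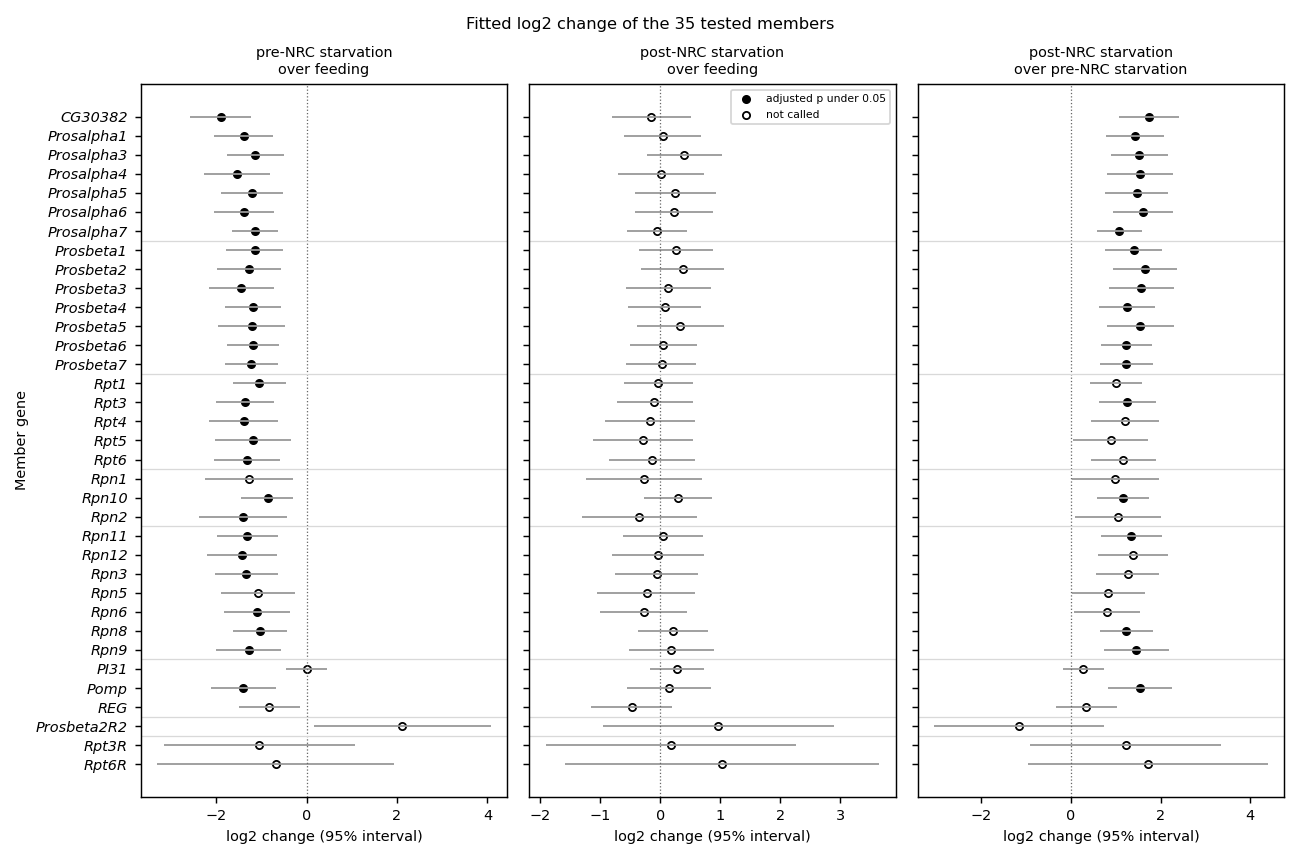
Fitted log2 changes with 95% intervals for the 35 tested members in the 3 comparisons, with filled points at an adjusted p under 0.05. All 29 subunits lie between −1.90 and −0.86 at the left, between −0.35 and 0.40 in the middle and between 0.81 and 1.75 at the right.

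The number of calls depended on single libraries. In fits that left out 1 library each, 9 to 31 members were called lower in pre-NRC starvation over feeding. The count was 9 without pre-NRC replicate 1, 10 without pre-NRC replicate 2, and 9 without feeding replicate 1 or feeding replicate 2. Over all genes, calls in either direction went down too, to 14.9%, 12.9%, 10.9% and 10.3% in these 4 fits, beside 27.5% with all libraries. The median change of the 29 subunits in them was −1.13, −1.07, −1.27 and −1.22. All 9 fits kept 8 of the 28 calls: CG30382, Prosalpha1, Prosalpha4, Prosalpha6, Prosalpha7, Prosbeta6, Prosbeta7 and Rpt3. With the replicate number as a block, 31 members were called lower and 0 of the 28 calls were lost, beside 18.8% of all genes called lower in that fit. The block added Rpn1 (−1.42, adjusted p = 0.0111), Rpn5 (−1.17, adjusted p = 0.0179) and REG (−0.78, adjusted p = 0.0274).

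In glands starved after the checkpoint, no proteasome gene was called different from feeding glands. Of 35 members, 0 passed in post-NRC starvation over feeding by edgeR, DESeq2 and limma-voom, and 0 had an unadjusted p under 0.05 in edgeR. Of all genes, 0.809% were called in either direction by edgeR, 6.74% by DESeq2 and 0.377% by limma-voom. DESeq2 gave no adjusted p for Rpt6R. The median log2 change of the 29 subunits was 0.02, with 0.10 for the core and −0.10 for the regulatory particle, and the median over all genes was 0.02. Subunits ranged from −0.35 for Rpn2 (95% interval −1.30 to 0.61) to 0.40 for Prosalpha3 (95% interval −0.22 to 1.03). Over all 29 the ends of the intervals reached from −1.30 (Rpn2) to 1.07 (Prosbeta2), and that of Prosalpha7 was narrower, from −0.55 to 0.44. Post-NRC and feeding libraries did not overlap for the ATPase Rpt5 (−0.29, SE 0.37), the lid subunit Rpn6 (−0.28, SE 0.32) and the paralog Rpt6R (1.03, SE 1.16), and none of these passed. These are 3 of 35 members, beside 23.3% of all genes separated in either direction.

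Set against glands starved before the checkpoint, glands starved after it had more proteasome transcripts. In post-NRC over pre-NRC starvation, 20 of 35 members were called higher and 0 lower, beside 1.9% of all genes called higher. They were 14 of 14 core subunits, 5 of 15 regulatory subunits (Rpt3, Rpn10, Rpn11, Rpn8 and Rpn9) and Pomp. The median log2 change was 1.26 for the 29 subunits, 1.50 for the core and 1.17 for the regulatory particle, beside −0.02 over all genes. The difference between the particles was not tested. Changes of the subunits ran from 0.81 for Rpn6 (SE 0.32, adjusted p = 0.15) to 1.75 for CG30382 (SE 0.30, adjusted p = 0.0307). Libraries of the 2 groups did not overlap for 25 of the 29 subunits, and 13.7% of all genes were separated and higher. This comparison shares its libraries with the other comparisons, so it is no separate evidence.

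The calls in post-NRC over pre-NRC starvation depended on single libraries. Adjusted p of the 20 calls lay between 0.0307 and 0.0439, and 0 passed at a threshold of 0.01, as did 0.0643% of all genes. Leaving out 1 library gave 0 to 31 calls: 0 without pre-NRC replicate 1 or 2, post-NRC replicate 1 or 2, or feeding replicate 1 or 2, and 31 without pre-NRC replicate 3. Over all genes, 6 to 60 were called in the 6 fits without a member call, and 1551 of 11072 in the fit without pre-NRC replicate 3. In the 6 fits with 0 calls by edgeR, 25 to 29 members had an unadjusted p under 0.05. A fit of only the 6 libraries compared also gave 0 calls by edgeR, with 25 at an unadjusted p under 0.05. Of all genes, 0.742% were called in that fit. DESeq2 and limma-voom on all 9 libraries gave 25 calls each, beside 17.3% and 6.74% of all genes called in either direction. Every subunit was still higher in post-NRC starvation in each of the 9 fits, from 0.59 for Rpn6 to 2.07 for CG30382 at the extremes.

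Summed over genes, core transcripts came to 1388, 1175 and 2134 CPM in pre-NRC starvation, 5032, 4481 and 3176 CPM in post-NRC starvation, and 4014, 4016 and 3310 CPM in feeding. Regulatory transcripts came to 1134, 1143 and 2522 CPM in pre-NRC starvation, 3616, 3587 and 3386 CPM in post-NRC starvation, and 3567, 3579 and 4100 CPM in feeding. For both sums every pre-NRC library was below every library of the other groups. The 29 subunits together took 0.232%, 0.232% and 0.51% of all counts in pre-NRC starvation, 0.836%, 0.757% and 0.738% in post-NRC starvation, and 0.735%, 0.729% and 0.771% in feeding. The ratio of core to regulatory CPM was 1.22, 1.03 and 0.846 in pre-NRC starvation, 1.39, 1.25 and 0.938 in post-NRC starvation, and 1.13, 1.12 and 0.808 in feeding. The ratio overlapped between all groups and was lowest in replicate 3 of each.

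**Figure D4:**
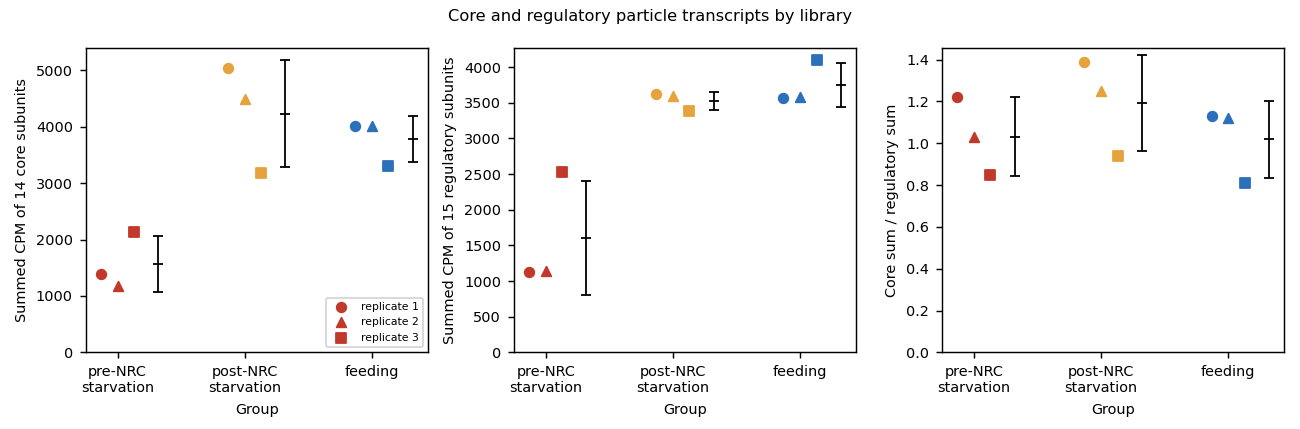
Summed CPM of the 14 core subunits, summed CPM of the 15 regulatory subunits and the ratio of the sums, with 1 point per library and the mean with its SD (n = 3) beside each group. Both sums are lowest in pre-NRC starvation, whereas the ratio overlaps between groups and is lowest in replicate 3 of each group.

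Replicate 3 moved the subunits in each group. In pre-NRC starvation it was the highest library for 29 of 29 subunits, by a median of 0.89 on the log2 scale over replicates 1 and 2. In post-NRC starvation it was the lowest library for 22 of 29 and the highest for 2, with a median of −0.39. In feeding it was the lowest for 16 and the highest for 11, with a median of −0.04. The signed deviation of replicate 3 from replicates 1 and 2 was more positive, or less negative, for longer genes. Its correlation with the log of exon length across the 29 subunits was 0.80 in pre-NRC starvation, 0.86 in post-NRC starvation and 0.81 in feeding, a description across genes of the same libraries. Core subunits are the shorter ones, with a median exon length of 971 bases (815 to 1215), against 1553 bases (995 to 3412) for regulatory subunits. With replicates 1 and 2 of every group alone, 32 members were called lower and Prosbeta2R2 higher in pre-NRC starvation over feeding, where 42.4% of all genes were called in either direction, and the median change of the subunits was −1.71. In an alternative chosen after seeing the data, a trend on exon length was removed from each library. There, 28 members were called lower in pre-NRC starvation over feeding and 11 higher in post-NRC over pre-NRC starvation. Of all genes, 33.4% were then called in either direction in pre-NRC starvation over feeding, beside 27.5% without the removal. In post-NRC over pre-NRC starvation the shares were 7.4% with the removal and 5.19% without it.

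The subunits varied little among themselves within a library. The SD over the 29 subunits of log2 CPM relative to feeding was 0.30, 0.24 and 0.22 in the pre-NRC libraries, 0.35, 0.29 and 0.13 in the post-NRC libraries, and 0.10, 0.11 and 0.20 in the feeding libraries. The same SD over all genes tested was 1.84, 1.77 and 1.61 in the pre-NRC libraries, 1.11, 1.28 and 1.05 in the post-NRC libraries, and 0.59, 0.58 and 0.62 in the feeding libraries. All genes tested include weakly expressed ones, whose counting error is larger, so the 2 SDs are not matched on level.

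The canonical subunits without the annotation were measured in the same fit. In pre-NRC starvation over feeding 4 of 5 were called lower: the alpha subunit Prosalpha2 (−1.24), the ATPase Rpt2 (−1.23), and the lid subunits Rpn7 (−1.32) and Sem1 (−1.03). The ubiquitin receptor Rpn13 did not pass (−0.50, SE 0.18, adjusted p = 0.0669), but passed with the replicate number as a block (−0.51, adjusted p = 0.0408). In post-NRC over pre-NRC starvation 3 of 5 were called higher, and in post-NRC starvation over feeding 0 of 5 were called by edgeR, with all 5 unadjusted p above 0.05.

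Of the 14 paralogs, 3 were abundant enough to test, and 0 passed in any comparison with all 9 libraries. Rpt6R, a copy of the ATPase Rpt6, had 5, 5 and 194 counts in pre-NRC starvation, 187, 152 and 222 counts in post-NRC starvation, and 75, 72 and 152 counts in feeding. Pre-NRC replicate 3 thus carried nearly all Rpt6R counts of its group, and the change over feeding was −0.68 (SE 1.16, adjusted p = 0.691). Rpt3R had 3, 7 and 37 counts in pre-NRC starvation, 45, 12 and 37 counts in post-NRC starvation, and 41, 21 and 28 counts in feeding (−1.05, SE 0.93, adjusted p = 0.432). Prosbeta2R2 had 43, 37 and 10 counts in pre-NRC starvation, 9, 20 and 6 counts in post-NRC starvation, and 5, 7 and 8 counts in feeding. Its pre-NRC libraries were all above feeding, and the change of 2.12 (SE 0.86, adjusted p = 0.0963) did not pass.

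The other 11 paralogs had few counts in any library. Prosalpha4T2, which the choice of genes by level or p did not cover, had 15, 12 and 3 counts in pre-NRC starvation. It had 0 in every post-NRC and feeding library. With feeding set at a floor of 3 counts over the group, its pre-NRC level was 9.6-fold that of feeding. Prosbeta5R1 had 0, 11 and 21 counts in pre-NRC starvation and 0 in every post-NRC and feeding library. On the same floor its pre-NRC level was 10.2-fold that of feeding. Both ratios use counts summed over the group, and neither was tested. Not all of the 11 were confined to pre-NRC starvation. Summed over the group, Rpt4R had 15 counts in pre-NRC starvation, 7 in post-NRC starvation and 7 in feeding. Prosalpha3T had 3, 0 and 2 counts in the same order. The floor covers counting error in feeding, while counting error of the pre-NRC counts and the spread between pools are not covered. Testis markers were also at trace level: their summed CPM over 7 genes was 2.89, 1.6 and 3.03 in pre-NRC starvation, 1.22, 0.32 and 0.764 in post-NRC starvation, and 0.25, 0.423 and 1.22 in feeding. Of 3 testable markers, dj alone was called higher in pre-NRC starvation over feeding, and it was at 0 in all feeding libraries. Untested markers went different ways. The marker sa was at 0 in every post-NRC and feeding library. In contrast, vas had 0, 0 and 0.69 CPM in pre-NRC starvation and 0.45, 0.32 and 0.15 CPM in post-NRC starvation. The marker nos was at 0 in pre-NRC replicate 1 and present in every feeding library. The part of germline tissue in the paralog counts was not tested.

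Other genes of ubiquitin-dependent breakdown, in lists chosen with earlier results of these data known, changed less uniformly in pre-NRC starvation over feeding. Among all genes, 1248 of 10883 were called lower and 1750 higher. Of 79 tested genes in the KEGG list of ubiquitin-mediated proteolysis, 12 were called lower and 6 higher, with a median of −0.31. Of 106 in the list of protein processing in the endoplasmic reticulum, 35 were called lower and 0 higher, with a median of −0.57. Of 114 in the ribosome list, 18 were called lower and 0 higher, with a median of −0.23.

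Upstream of the proteasome, the sole ubiquitin-activating enzyme in the list, Uba1, had 230, 246 and 328 CPM in pre-NRC starvation, 400, 297 and 368 CPM in post-NRC starvation, and 515, 505 and 514 CPM in feeding. Uba1 was called lower (−0.93, SE 0.21, adjusted p = 0.0142), the only call among 5 ubiquitin genes and the activating enzyme. Of 12 tested conjugating enzymes, 3 were lower, namely Ubc10 (−1.10, SE 0.21), ben (−1.18, SE 0.24) and Ubc4 (−0.78, SE 0.23). Of 6 shuttle factors and p97 genes, which bring ubiquitylated proteins to the proteasome, 3 were lower: Ubqn (−1.16, SE 0.28), Ufd1-like (−1.03, SE 0.27) and p47 (−0.81, SE 0.22). TER94, the fly p97, had a change of −1.24 (SE 0.56, adjusted p = 0.126) and did not pass.

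Of 6 deubiquitinases 3 were called lower: Uch-L5 (−1.16, SE 0.26), CG5384 (Usp14, −1.29, SE 0.34) and Uch (−0.97, SE 0.24). CG12082 (Usp5) had the change furthest from 0 of the 6 (−2.07, SE 0.95, adjusted p = 0.134) and did not pass. With the replicate number as a block, 5 of the 6 were called lower, beside 18.8% of all genes. The COP9 signalosome, a complex built like the lid that removes Nedd8 from cullin ligases, had 5 of 8 genes lower, among them alien (CSN2; −1.13, SE 0.22, adjusted p = 0.00893). The transcription factor cnc, whose homologues activate proteasome genes, had 109, 106 and 219 CPM in pre-NRC starvation, 170, 116 and 209 CPM in post-NRC starvation, and 110, 114 and 230 CPM in feeding. The groups of cnc overlapped (−0.07, SE 0.40, adjusted p = 0.92). Keap1, its negative regulator, had 42.3, 52.0 and 23.2 CPM in pre-NRC starvation, 17.8, 13.96 and 25.2 CPM in post-NRC starvation, and 11.7, 14.4 and 20.6 CPM in feeding. Keap1 was called higher (1.33, SE 0.37, adjusted p = 0.0284), the 1 call in a list of 5.

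**Figure D5:**
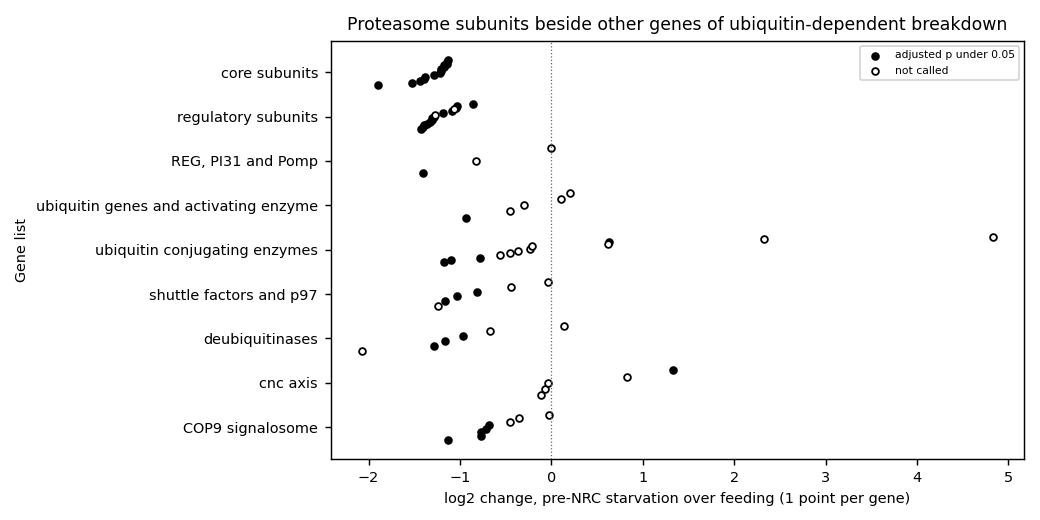
Log2 change in pre-NRC starvation over feeding, with 1 point per gene and 1 row per list, filled at an adjusted p under 0.05. Core and regulatory subunits lie between −1.90 and −0.86, while the other lists spread wider and hold genes on both sides of 0 or near it.

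Markers of other tissues moved between the same groups. Summed over 7 hemocyte markers, CPM was 2750 to 4070 in pre-NRC starvation, 863 to 1530 in post-NRC starvation and 749 to 1850 in feeding, and 3 of 7 were called higher in pre-NRC starvation over feeding. Muscle markers summed to 6950 to 9880 CPM in pre-NRC starvation, 1990 to 3990 CPM in post-NRC starvation and 5180 to 5540 CPM in feeding, with 2 of 7 called higher. Neuron markers summed to 139 to 154 CPM in pre-NRC starvation, 74.4 to 137 CPM in post-NRC starvation and 57.6 to 117 CPM in feeding, with 3 of 7 called higher. Fat body markers were at 140, 186 and 2190 CPM in pre-NRC starvation, 474 to 1640 CPM in post-NRC starvation and 650 to 1750 CPM in feeding, with 1 of 7 called higher, so pre-NRC replicate 3 stood apart in these as in the subunits. Salivary gland markers were at 116 to 195 CPM in pre-NRC starvation, 54.7 to 2530 CPM in post-NRC starvation and 288 to 1890 CPM in feeding, with 2 of 7 called lower and 1 higher, and Sgs1 and Sgs5 were at 0 in pre-NRC replicate 1. Of 8 ring gland markers, 6 were called lower and Akh higher in pre-NRC starvation over feeding, with a median log2 change of −1.87 over the 8. The part of these tissues in the proteasome result was not tested.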

How the data were processed

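Total RNA of pooled ring glands was sequenced as paired ends with the NEBNext Ultra Directional RNA kit, per the labels' protocols. The deposited table holds whole-number counts and FPKM values made by the authors. The submitters' processing notes name HISAT2, StringTie, Bowtie, Cufflinks and the build BDGP6; which tool and strand setting gave the counts is not given in the sources used here. Genes with overlapping exons are therefore uncertain (14 of the 35 tested members). The columns named as wild type carry no starvation term and were taken as the feeding libraries.

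Members were the rows whose KEGG annotation names the proteasome; the members and gene lists were chosen with earlier results of these data known. Current symbols, exon lengths and coordinates came from the BDGP6 reference annotation. Counts were filtered with filterByExpr (minimum count 10), scaled by TMM and tested with edgeR 4.0.16 (R 4.3.3; quasi-likelihood, all 9 libraries, 1 coefficient per group, two-sided) over 10883 genes with Benjamini-Hochberg adjustment and a threshold of 0.05; the procedure was tested on simulated data. CPM used TMM-scaled library sizes. Each SE was derived from the log2 change and its F statistic. Biological variation between pools was 50.6% as a coefficient, and p-values measure the spread between pools. Depth was 29123939 to 36131089 counts, and a floor covers only the counting error of a group without counts. FPKM served for levels between genes and for alternatives. DESeq2 1.42.0 and limma 3.58.1 were alternatives, beside other scalings, no filter, fewer libraries, summed feeding replicates 1 and 2, another threshold, pseudocounts of 1 and 0.1 on FPKM, and, added after seeing the data, a length correction (lowess, span 0.3). No count column was left unused.

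In each role class, values in every library are given for the 2 genes with the highest mean FPKM. They are also given for the 2 with the smallest p in pre-NRC starvation over feeding. From other lists they are given for some of up to 4 genes with the smallest p past the threshold. Values of cnc and PI31 in every library were added after they were seen. Changes of Rpn13, TER94 and CG12082, without values in every library, were also added after they were seen. Prosalpha4T2 and the testis markers are given outside this choice. The replicate number served as a block in an alternative fit, and the main fit had no block. Any pairing by number rests on the data alone. Same-number libraries of pre-NRC starvation and feeding deviated together (correlations 0.1632, 0.1165 and 0.3018), as did those of post-NRC starvation and feeding (0.1257, 0.1192 and 0.2966). Different numbers among replicates 1 and 2 correlated about as highly (0.1251 and 0.1162 in pre-NRC starvation), so the pattern mainly sets replicate 3 apart.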

Additional observations from a re-analysis of the deposited data

How the results depend on the processing

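The count of members called lower in pre-NRC starvation over feeding was 28, where 27.5% of all genes were called in either direction. Under other scalings, tools, filters, FPKM, the length correction, the 6 libraries compared and replicates 1 and 2 alone, 25 to 33 members were called. The 33, with replicates 1 and 2 alone, include 1 higher. Of all genes, 19.8% to 42.4% were called in these alternatives. With the replicate block 31 members were called, beside 36.8% of all genes. The count was 15 with feeding replicates 1 and 2 summed, where 11.2% of all genes were called in either direction. It was 2 at a threshold of 0.01, where 8.01% of all genes were called in either direction. When 1 library was left out it was 9 to 31, where 10.3% to 30.7% of all genes were called in either direction. In post-NRC over pre-NRC starvation the count was 20, and 20 to 25 with other scalings, tools, FPKM and no filter. It was 0 with only the 6 libraries compared (25 at an unadjusted p under 0.05), 0 with feeding replicates 1 and 2 summed (29 unadjusted), 0 at a threshold of 0.01, 11 with the length trend removed, 31 with replicates 1 and 2 of every group, and 0 to 31 when 1 library was left out; these were edgeR fits, and DESeq2 and limma-voom were run on all 9 libraries only, with 25 calls each. The replicate block gave 27 calls (768 of all genes called higher). Same-number libraries of these 2 groups had correlations of 0.0998, 0.1495 and 0.3648. Post-NRC replicate 2 with pre-NRC replicate 1 had 0.2337, so the 2 starved groups were not taken as paired. The block ended no call in any comparison. In post-NRC starvation over feeding the count was 0 under each alternative, and the median of the 29 subunits was −0.09 without post-NRC replicate 1 and 0.16 without post-NRC replicate 3. No called change turned its direction. PI31, not called, ranged from −0.09 to 0.15 in pre-NRC starvation over feeding, with a lowest adjusted p of 0.413. Upper-quartile scaling moved the median of all genes by 0.10 on the log2 scale. The cause of these differences was not tested. With 3 pools a group, precision is limited by their number and spread; most paralogs also had few counts.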
